A study of Homo sapiens with 18 samples.

Results

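Palbociclib (PD0332991), a CDK4/6 inhibitor, was removed for the last 6 h of a 30 h schedule or kept to the end, and the RNA of both cell populations was compared. The comparison rests on 6 of the 18 samples of the series, chosen by their labels. They are 3 libraries of PD24, in which SJSA cells received 10 µM PD0332991 for 24 h and then none for 6 h, and 3 libraries of PD30, in which the drug was present for all 30 h. The 3 DMSO libraries, without either drug, served as reference for what the drug had changed. Nutlin, the MDM2 antagonist of the other 9 samples, was absent from all libraries used here. SJSA is an osteosarcoma line with amplification of MDM2 and CDK4, so a single cell line stands behind all values, and the study asked how CDK4 inhibition alters the response to MDM2 inhibition in such cells. The study describes its samples as biological triplicates, but how cultures were separated is not given in the sources used here, so p-values measure the spread between these libraries. Whether PD30 and DMSO cultures also received new medium at 24 h is not given in the sources used here, so removal of the drug and a change of medium cannot be told apart.

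CDK4 and CDK6, bound to a D-type cyclin, phosphorylate RB1 and its relatives RBL1 and RBL2. Unphosphorylated pocket proteins hold E2F factors in check, and with the DREAM complex they keep the genes of DNA replication and of mitosis low. The first group typically carries E2F sites at its promoters and rises in late G1, and the second carries a CHR element and rises later, in G2. Sterol synthesis is controlled on another route, by SREBP factors that enter the nucleus when sterols in the endoplasmic reticulum are low and that INSIG1 retains when they are high.

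The libraries held 23720994 to 40231041 counts on genes in PD24, 29035675 to 35963015 in PD30 and 28836321 to 33004047 in DMSO. Of 16 markers of osteoblast and mesenchymal cells, 13 had a mean above 1 CPM (TMM-scaled count relative to library size), with sums of 7197 to 9797 CPM in PD24 and 5941 to 6945 CPM in PD30. The other 3, SP7, IBSP and BGLAP, had at most 3 counts in every library. Only 2 of 10 epithelial markers passed 1 CPM, with sums of 5.72 to 7.198 CPM in PD24 and 7.99 to 8.93 CPM in PD30. Haematopoietic and endothelial markers passed it in 4 of 10 cases, with sums of 37.4 to 40.5 CPM in PD24 and 33.4 to 47.6 CPM in PD30. PD24 replicate 3 was the PD24 library nearest to PD30 in 46.5% of 3812 changed genes, against 30.0% for replicate 1 and 23.6% for replicate 2.

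At a Benjamini-Hochberg adjusted p under 0.05 in edgeR's quasi-likelihood test, 1963 of 15171 tested genes were higher in PD24 than in PD30 (12.9%) and 1853 were lower (12.2%). Of these, 618 were higher by a log2 fold change over 1 (4.07%) and 519 were lower by that margin (3.42%). The median log2 fold change over all genes was 0.02, and in 6418 genes (42.3%) the PD24 and PD30 libraries did not overlap. Values after ± beside a log2 fold change are standard errors (SE). For comparison, PD30 had 3468 genes above DMSO (22.9%) and 3839 below (25.4%), while PD24 had 2639 above (17.5%) and 3142 below (20.8%). The 3 comparisons share libraries pairwise, so their counts are given side by side and no overlap between them is read. List counts in each comparison are to be read beside these shares of all genes. With the replicate number as a block, 3120 genes were higher in PD24 than in PD30 and 2987 were lower. Without PD30 replicate 1 the counts were 1115 and 1063, and without PD30 replicate 3 the total fell to 2520.

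Mean levels of gene lists with known roles followed several patterns, which the plot of list levels shows library by library. The mean of the cholesterol list, raised in PD30, lay near DMSO in PD24. That of replication licensing genes, low in PD30, was higher in PD24 and still far below DMSO. The mean of G2 and mitosis genes in PD24 overlapped that in PD30, although each PD24 library lay below the PD30 library of the same number. The means of the ribosome biogenesis, heat shock and cytokine lists lay above all DMSO libraries in every PD24 library. Those of the lysosomal, YAP/TEAD and hypoxia and glycolysis lists did so in every PD24 and PD30 library. For hypoxia and glycolysis, PD30 replicate 3 did so only barely (0.035 against at most 0.0349 in DMSO).

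**Figure D1:**
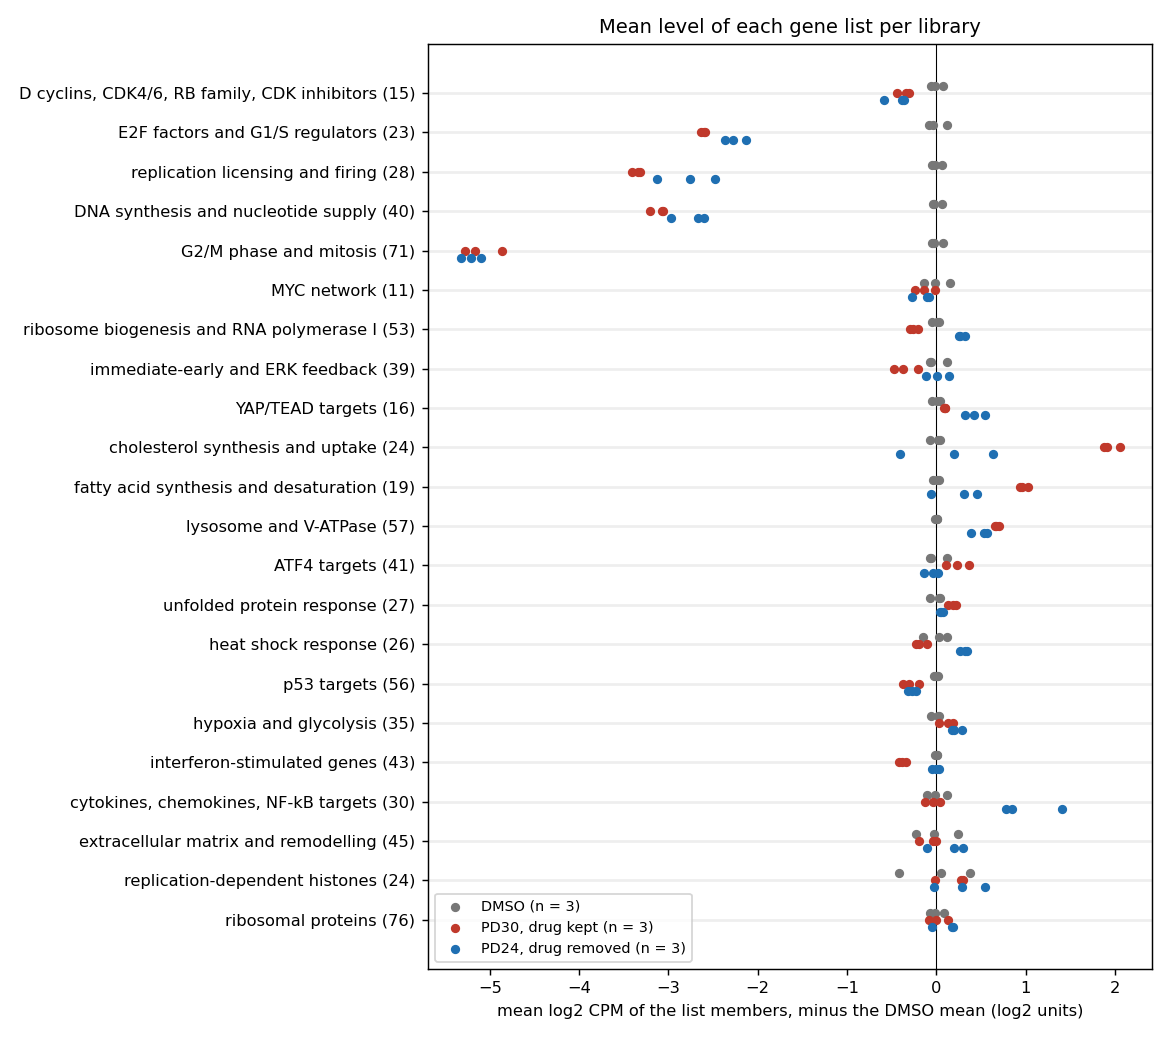
Mean log2 CPM of each gene list per library, with the mean of the 3 DMSO libraries set to 0 (x axis, log2 units; the number of members is in brackets). The G2/M list lies between -4.87 and -5.33 in all PD30 and PD24 libraries, whereas cholesterol synthesis lies at 1.87 or more in PD30 and between -0.41 and 0.63 in PD24.

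The promoters of the cell cycle genes differed in the letters they carried. The E2F letter strings TTTCGCGC, TTTGGCGC, TTTCCCGC and TTTGCCGC, on either strand, were sought in the 250 bases before and 50 bases after each gene start in RefSeq (GRCh38.p14), and matches may overlap. They stood in 12 of 24 promoters of licensing and firing genes (50.0%), in 8 of 19 of E2F factors and G1/S regulators (42.1%), in 11 of 35 of DNA synthesis genes (31.4%) and in 5 of 62 of G2/M genes (8.06%), against 3.31% of all 35116 promoters. The CHR letters TTTGAA and TTCGAA, either strand, stood in 49 of 62 G2/M promoters (79.0%) and in 2 of 24 licensing promoters (8.33%), against 16.4% of all. Among tested genes outside the 4 cell cycle lists, 59 of 421 genes with E2F letters alone (14%) and 1126 of 8677 with neither motif (13%) were higher in PD24 than in PD30. A match describes letters and is not a binding site. List members without a promoter entry were not searched, so the list counts cover fewer genes than the lists hold. The stretches below run from 90 bases before to 30 after the start, with the matched letters in capitals. Among genes not displayed, EZH2, MCM3 and POLE carried E2F letters and rose. LIN52 carried them and fell, and E2F2, E2F3 and TFDP1 carried them and did not pass. CCNE1, E2F7, LIN9 and TIPIN rose without a match. The first set, with E2F letters, is shown because all but E2F1 passed the test as higher in PD24 than in PD30. It covers CDC25A at chr3:48188388-48188507 on the minus strand, HELLS at chr10:94545698-94545817 on the plus strand, MCM2 at chr3:127598321-127598440 on the plus strand, GINS3 at chr16:58392381-58392500 on the plus strand, POLE2 at chr14:49688185-49688304 on the minus strand and E2F1 at chr20:33686356-33686475 on the minus strand.
CDC25A: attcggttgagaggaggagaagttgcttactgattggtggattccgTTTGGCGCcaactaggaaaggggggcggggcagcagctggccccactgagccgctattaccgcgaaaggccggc
HELLS: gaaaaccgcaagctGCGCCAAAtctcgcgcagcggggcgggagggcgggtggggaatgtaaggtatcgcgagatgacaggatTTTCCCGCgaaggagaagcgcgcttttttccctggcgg
MCM2: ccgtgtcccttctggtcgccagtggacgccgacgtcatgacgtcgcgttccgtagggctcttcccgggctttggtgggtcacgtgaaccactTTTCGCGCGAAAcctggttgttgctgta
GINS3: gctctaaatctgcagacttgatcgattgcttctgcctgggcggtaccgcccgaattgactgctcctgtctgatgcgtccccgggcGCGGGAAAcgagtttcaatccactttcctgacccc
POLE2: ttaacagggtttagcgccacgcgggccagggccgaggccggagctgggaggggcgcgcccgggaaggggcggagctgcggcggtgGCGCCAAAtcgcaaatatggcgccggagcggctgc
E2F1: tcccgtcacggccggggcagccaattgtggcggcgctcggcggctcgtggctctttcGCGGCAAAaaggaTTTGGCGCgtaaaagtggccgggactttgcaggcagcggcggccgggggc
In the second set, with CHR letters, CCNF rose, HMMR fell, and PLK1 and MKI67 (picked for display after their values were seen) did not pass. It covers CCNF at chr16:2429357-2429476 on the plus strand, HMMR at chr5:163460542-163460661 on the plus strand, PLK1 at chr16:23678799-23678918 on the plus strand and MKI67 at chr10:128126394-128126513 on the minus strand.
CCNF: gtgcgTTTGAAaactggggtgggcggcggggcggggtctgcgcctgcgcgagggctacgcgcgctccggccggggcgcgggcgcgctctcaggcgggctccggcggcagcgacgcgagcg
HMMR: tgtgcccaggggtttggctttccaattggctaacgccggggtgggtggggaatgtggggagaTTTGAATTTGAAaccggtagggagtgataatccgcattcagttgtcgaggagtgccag
PLK1: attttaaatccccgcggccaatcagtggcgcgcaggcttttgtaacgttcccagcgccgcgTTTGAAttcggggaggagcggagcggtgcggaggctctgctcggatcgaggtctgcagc
MKI67: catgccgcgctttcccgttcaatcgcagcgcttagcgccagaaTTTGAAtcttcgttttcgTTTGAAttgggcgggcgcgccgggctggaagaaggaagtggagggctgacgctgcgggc

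Among the 15 genes of the D-type cyclins, CDK4/6, the pocket proteins and the CDK inhibitors, 2 were higher and 5 were lower in PD24 than in PD30, against 12.9% and 12.2% of all genes. The list median was -0.07. Their levels in PD24 were not uniformly closer to DMSO, since several moved further away. CDKN2B, which encodes the CDK4/6 inhibitor p15, stood at 32.9, 40.5 and 42.8 CPM in PD30, 76.7, 90.1 and 80.1 in PD24 and 33.1, 31.0 and 26.8 in DMSO. CDKN2D, which encodes the related inhibitor p19, stood at 14.6, 15.2 and 21.6 CPM in PD30, 5.64, 5.81 and 5.25 in PD24 and 34.3, 36.5 and 34.5 in DMSO. All PD24 libraries lay above every other library for CDKN2B and below every other library for CDKN2D. CDKN2B rose by a log2 fold change of 1.07 ± 0.13 (SE, edgeR adjusted p = 0.00069), and CDKN2D had a log2 fold change of -1.63 ± 0.18 (SE, edgeR adjusted p = 0.00054). The amplified target gene CDK4 stood at 2197, 2457 and 2377 CPM in PD30 and 2076, 2537 and 2574 CPM in PD24. These groups overlapped, with a log2 fold change of 0.02 ± 0.11 (SE, edgeR adjusted p = 0.907) and a 95% interval from -0.22 to 0.26. Exons of TSPAN31 on the other strand overlap CDK4, and exons of CDKN2B-AS1 overlap CDKN2A.

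CCND2, a D-type cyclin, stood at 128, 115 and 153 CPM in PD30 and 92.4, 65.9 and 69.7 CPM in PD24, against 29.6, 26.6 and 24.8 CPM in DMSO. The PD24 libraries lay between the other groups without overlap, and the log2 fold change against PD30 was -0.80 ± 0.15 (SE, edgeR adjusted p = 0.00571). RBL2, the pocket protein p130, fell as well (-0.67 ± 0.13, edgeR adjusted p = 0.0071). CDKN1B, which encodes p27, had -0.44 ± 0.12 (SE, edgeR adjusted p = 0.0251), and CDKN1A, which encodes p21, had -0.34 ± 0.11 (SE, edgeR adjusted p = 0.0431). The D-type cyclin gene CCND3 had 0.61 ± 0.19 (SE, edgeR adjusted p = 0.0444) with overlapping groups. The call of CDKN1A was lost with 9 libraries in 1 fit (0.0984). The call of CDKN1B was lost without any 1 of 5 libraries (all but PD24 replicate 2), and those of CDKN1A and CCND3 were lost without PD24 replicate 1 or 2 or PD30 replicate 1 or 3, with adjusted p up to 0.0807, 0.171 and 0.144. The members CCND1 (0.26), CDK6 (0.33), RB1 (-0.34) and RBL1 (0.53, log2 fold changes) did not pass, and passed with the replicate block, at edgeR adjusted p of 0.0254, 0.0154, 0.0204 and 0.0145, so that the block gave 5 higher and 6 lower members. Without PD24 replicate 1, PD30 replicate 1 or PD30 replicate 3, 1 member was higher, and without either of the last 2 libraries 3 were lower. CDKN1C (-0.07), CDKN2A (0.32) and CDKN2C (-0.18) did not pass either fit.

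Of 23 tested E2F factors and G1/S regulators, 7 were higher and 3 lower in PD24, against 12.9% and 12.2% of all genes. The list median was 0.14. The same list had a median of -3.12 in PD30 against DMSO, with 18 of 24 lower and 1 higher, and of -2.77 in PD24 against DMSO, with 19 of 24 lower. CDC25A, the phosphatase that activates CDK2, stood at 2.43, 1.43 and 1.56 CPM in PD30, 5.19, 5.33 and 3.72 in PD24 and 33.5, 37.9 and 39.9 in DMSO. HELLS, a chromatin remodeller, stood at 1.96, 1.598 and 1.89 CPM in PD30, 6.46, 4.76 and 4.04 in PD24 and 49.5, 52.97 and 63.8 in DMSO. LIN9, a subunit of the MuvB core, stood at 0.371, 0.854 and 1.00 CPM in PD30, 4.09, 2.20 and 2.05 in PD24 and 16.9, 16.6 and 21.4 in DMSO. For each of these genes all PD24 libraries lay above all PD30 libraries and far below all DMSO libraries. CDC25A rose by 1.38 ± 0.25 (SE, edgeR adjusted p = 0.00454), HELLS by 1.47 ± 0.22 (SE, edgeR adjusted p = 0.00196) and LIN9 by 1.86 ± 0.39 (SE, edgeR adjusted p = 0.00847) on the log2 scale. In bulk RNA, fewer cells in a phase and less RNA per cell cannot be told apart.

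The cyclin E genes, whose products activate CDK2, rose from different depths. CCNE1 stood at 3.71, 5.68 and 4.42 CPM in PD30, 8.08, 8.90 and 7.12 in PD24 and 20.1, 20.8 and 22.1 in DMSO. CCNE2 stood at 0.708, 0.634 and 0.501 CPM in PD30, 1.27, 1.45 and 1.03 in PD24 and 70.8, 67.9 and 96.3 in DMSO. Neither gene's PD24 libraries overlapped the other groups. CCNE1 rose by 0.78 ± 0.19 (SE, edgeR adjusted p = 0.0167) and CCNE2 by 1.00 ± 0.27 (SE, edgeR adjusted p = 0.0234), and against DMSO their log2 fold changes were -1.39 and -5.99. EZH2, a histone methyltransferase, rose by 0.66 ± 0.14 (SE, edgeR adjusted p = 0.00988), and E2F7, a repressor of the E2F family, by 1.10 ± 0.36 (SE, edgeR adjusted p = 0.0495) with overlapping groups. The calls of CCNE1 and CCNE2 were lost without PD30 replicate 3, CCNE1 also without PD30 replicate 1 and CCNE2 without PD24 replicate 1 or 2 or PD30 replicate 2, with adjusted p up to 0.0648 and 0.0816. E2F7 lost its call without any library but PD24 replicate 2 and PD30 replicate 3 (up to 0.138), and under RLE or total count scaling (0.0542 and 0.0532). Exons of INTS8 on the other strand overlap CCNE2.

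The activator E2F1 stood at 4.55, 3.86 and 1.81 CPM in PD30, 7.32, 5.68 and 2.71 in PD24 and 90.4, 92.9 and 89.8 in DMSO. Its PD24 and PD30 libraries overlapped, and the log2 fold change of 0.60 ± 0.4 (SE, edgeR adjusted p = 0.297) passed with the block, at an edgeR adjusted p of 0.0119. E2F4 (0.30 ± 0.11, edgeR adjusted p = 0.0629) also passed with the block, at 0.0144. The members that fell were E2F5 (-0.58 ± 0.17, edgeR adjusted p = 0.0319), TFDP2, an E2F partner (-0.42 ± 0.11, edgeR adjusted p = 0.0246), and LIN52, a MuvB subunit (-0.58 ± 0.14, edgeR adjusted p = 0.0167). Each of these 3 calls was lost without PD30 replicate 2 and without at least 2 further libraries, with adjusted p up to 0.0908, 0.104 and 0.0543. Without PD30 replicate 2 no member of the list was lower. The remaining 11 members had log2 fold changes between -0.21 for SKP2 and 0.35 for LIN54 and did not pass. They were E2F2 (-0.11), E2F3 (0.07), E2F6 (0.14), TFDP1 (0.08), CDK2 (-0.05), SKP2, FBXO5 (0.11), MYBL1 (0.33), MYBL2 (-0.09), LIN37 (-0.10) and LIN54.

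Replication licensing and firing was the cell cycle list with the largest median, 0.70, and 16 of its 28 members were higher in PD24 than in PD30 while 1 was lower. In PD30, 27 of the 28 lay below DMSO, with a median of -3.26, and in PD24, 25 lay below, with a median of -2.81. MCM4, a subunit of the MCM helicase, stood at 27.9, 27.6 and 24.4 CPM in PD30, 85.5, 70.8 and 48.3 in PD24 and 443, 455 and 496 in DMSO. MCM2, of the same helicase, stood at 24.1, 27.1 and 23.1 CPM in PD30, 45.5, 49.9 and 38.8 in PD24 and 188, 187 and 187 in DMSO. GINS3, of the GINS complex that fires the helicase, stood at 1.65, 2.26 and 1.95 CPM in PD30, 5.12, 4.71 and 3.57 in PD24 and 22.4, 22.6 and 21.9 in DMSO. All 3 genes separated PD24 from PD30 and both from DMSO, with PD24 nearer to PD30. MCM4 rose by 1.34 ± 0.19 (SE, edgeR adjusted p = 0.00141), MCM2 by 0.84 ± 0.13 (SE, edgeR adjusted p = 0.00227), GINS3 by 1.17 ± 0.21 (SE, edgeR adjusted p = 0.00476) and MCM3 by 0.78 ± 0.14 (SE, edgeR adjusted p = 0.00487). C15orf42, which encodes the firing factor TICRR, fell (-0.99 ± 0.2, edgeR adjusted p = 0.00815).

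The rise in this list varied among the PD24 libraries. The mean level of its members relative to DMSO lay at -3.34, -3.32 and -3.40 in the PD30 libraries and at -2.47, -2.76 and -3.13 in the PD24 libraries (log2 units), so PD24 replicate 3 was nearest to PD30 and none overlapped. Without PD24 replicate 1 or PD30 replicate 3 the count of higher members was 8, without PD30 replicate 1 it was 9, and at most it was 17. Of the 12 promoters with E2F letters, 9 belonged to genes that were higher in PD24, as did 4 of 11 with neither motif. In the DNA synthesis list, 5 of 11 genes with E2F letters alone and 7 of 21 with neither motif were higher. Among E2F factors and G1/S regulators these were 3 of 7 and 3 of 10. Such splits over few genes carry no test.

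In the list of DNA synthesis and nucleotide supply, 13 of 40 members were higher in PD24 and none were lower in edgeR (3 at an unadjusted p under 0.05, and 2 by DESeq2), with a median of 0.23, while 39 of 40 lay below DMSO in PD30 (median -2.99) and 39 in PD24 (median -2.73). POLE2, a subunit of DNA polymerase epsilon, stood at 0.303, 0.193 and 0.278 CPM in PD30, 1.27, 0.925 and 0.961 in PD24 and 8.69, 9.75 and 9.72 in DMSO. POLE, the catalytic subunit, stood at 7.15, 6.75 and 6.90 CPM in PD30, 13.03, 13.9 and 13.2 in PD24 and 98.8, 93.7 and 108 in DMSO. In both, each PD24 library lay above each PD30 library and under each DMSO library. POLE2 rose by 2.01 ± 0.31 (SE, edgeR adjusted p = 0.00217) and POLE by 0.94 ± 0.13 (SE, edgeR adjusted p = 0.00121). DSCC1, which loads the sliding clamp for cohesion, rose by 1.99 ± 0.28 (SE, edgeR adjusted p = 0.00133), and TIPIN, a replication fork protein, by 0.74 ± 0.13 (SE, edgeR adjusted p = 0.0036). PCNA, the clamp itself, and RRM2, which supplies deoxynucleotides, were named after their values were seen. PCNA had a log2 fold change of 0.31 ± 0.12 (SE, edgeR adjusted p = 0.0989), which passed with the block (0.0413), and RRM2 one of -0.24 ± 0.23 (SE, edgeR adjusted p = 0.464). The count of higher members was 6 without PD24 replicate 1, PD30 replicate 1 or PD30 replicate 3, and 8 without PD24 replicate 2 or PD30 replicate 2. With the block 16 members were higher and 3 were lower.

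**Figure D2:**
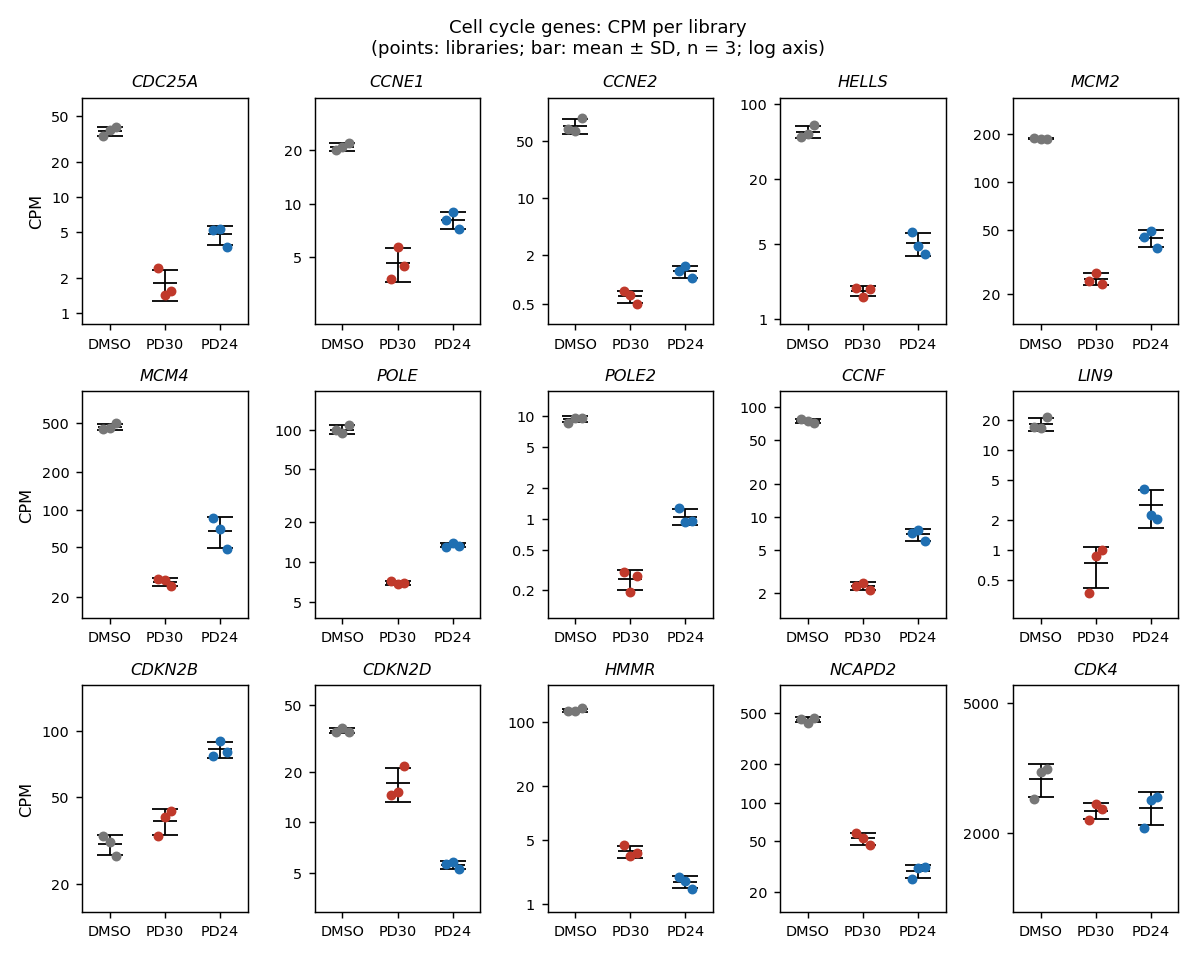
CPM of 15 cell cycle genes in each DMSO, PD30 and PD24 library (y axis, CPM on a log scale; points are libraries and bars mean ± SD, n = 3). CCNE2 lies between 0.50 and 0.71 CPM in PD30, between 1.03 and 1.45 CPM in PD24 and at 67.9 CPM or more in DMSO, while HMMR and NCAPD2 are lower in PD24 than in PD30.

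Genes of G2 and mitosis were low in both groups. Of 71 members, all 71 lay below DMSO both in PD30 (median -5.45) and in PD24 (median -5.40). Between PD24 and PD30, 6 were higher and 8 lower, with a median of -0.27, against 12.9% and 12.2% of all genes. CCNF, an F-box cyclin whose level follows the cell cycle, stood at 2.36, 2.51 and 2.14 CPM in PD30, 7.12, 7.66 and 5.99 in PD24 and 77.7, 74.5 and 71.4 in DMSO. HMMR, a spindle protein, stood at 4.45, 3.33 and 3.64 CPM in PD30, 1.99, 1.81 and 1.48 in PD24 and 131, 133 and 141 in DMSO. NCAPD2, a condensin subunit, stood at 57.9, 53.4 and 46.6 CPM in PD30, 25.4, 31.1 and 31.7 in PD24 and 448, 419 and 457 in DMSO. The PD24 libraries lay above PD30 for CCNF and below PD30 for HMMR and NCAPD2, without overlap. CCNF rose by 1.55 ± 0.17 (SE, edgeR adjusted p = 0.000611) and CDCA2, a chromosome-bound phosphatase subunit, by 1.34 ± 0.27 (SE, edgeR adjusted p = 0.00756), whereas HMMR (-1.13 ± 0.21, edgeR adjusted p = 0.00486) and NCAPD2 (-0.85 ± 0.13, edgeR adjusted p = 0.00242) fell.

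PLK1, a mitotic kinase, stood at 4.32, 3.31 and 3.70 CPM in PD30 and 2.41, 3.26 and 2.27 CPM in PD24, against 184, 166 and 149.8 CPM in DMSO. MKI67, which encodes the Ki-67 antigen, stood at 6.47, 4.60 and 4.34 CPM in PD30 and 3.64, 3.48 and 4.61 CPM in PD24, against 641, 663 and 752 CPM in DMSO. Both genes were chosen after their values were seen. PD24 lay below PD30 in every library for PLK1 and overlapped it for MKI67, and neither log2 fold change passed, at -0.53 ± 0.21 (SE, edgeR adjusted p = 0.0871) and -0.39 ± 0.21 (SE, edgeR adjusted p = 0.198). The median of the 44 tested G2/M genes with CHR letters alone was -0.13, with 4 higher and 6 lower. With the block 13 G2/M members were lower. Without PD24 replicate 3, 10 were higher, without PD24 replicate 1 or PD30 replicate 3, 3 were higher, and without PD30 replicate 1 and 2, 4 and 5 were lower. Without PD30 replicate 1 the list median was -0.015. Exons of MRPL51 on the other strand overlap NCAPD2.

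Cholesterol synthesis and uptake genes had the largest median difference of any list, with 22 of 24 lower in PD24 than in PD30, none higher by edgeR, DESeq2 or an unadjusted p under 0.05, and a median log2 fold change of -1.51. In PD30, 23 of 24 lay above DMSO, with a median of 1.87. In PD24, 6 lay above DMSO and 3 below, with a median of 0.19. INSIG1, which retains SREBP, stood at 183, 173 and 232 CPM in PD30, 12.8, 16.4 and 36.6 in PD24 and 37.2, 40.8 and 55.0 in DMSO. The PD24 libraries lay below both other groups without overlap. INSIG1 fell with a log2 fold change of -3.15 ± 0.35 (SE, edgeR adjusted p = 0.000582), and without PD24 replicate 3, the highest of its group, the value was -3.76. Against DMSO its log2 fold change was -1.002, at an edgeR adjusted p of 0.0473.

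Several sterol genes overlapped DMSO in PD24 or lay above it. MSMO1, a methylsterol oxidase, stood at 294, 278 and 356 CPM in PD30, 22.3, 25.1 and 52.4 in PD24 and 28.6, 34.7 and 38.9 in DMSO. SQLE, which makes squalene epoxide, stood at 302, 315 and 364 CPM in PD30, 34.5, 39.1 and 68.7 in PD24 and 51.5, 56.6 and 57.6 in DMSO. PD24 overlapped DMSO and lay far below PD30 for both, the highest PD24 value being that of replicate 3. MSMO1 fell with a log2 fold change of -3.22 ± 0.3 (SE, edgeR adjusted p = 0.000336), SQLE with -2.79 ± 0.24 (SE, edgeR adjusted p = 0.000232), and HSD17B7, a sterol reductase, with -2.72 ± 0.25 (SE, edgeR adjusted p = 0.000279). The difference of MSMO1 from DMSO had a 95% interval from -0.69 to 0.64 on the log2 scale, and that of SQLE from -0.73 to 0.30. There were 6 members above DMSO in PD24, with DHCR7 (1.67), MVD (1.32) and LSS (1.29), enzymes named after their values were seen, by the largest log2 fold changes. INSIG1 was among the 3 members below DMSO, and with the block 5 members were. SREBF2, which encodes SREBP-2, had a log2 fold change of -0.77 ± 0.2 (SE, edgeR adjusted p = 0.0211). The sterol element letters TCACCCCAC and TCACGCCAC, either strand, stood in 1 of 18 promoters of this list, that of SREBF2, and in 0.572% of all. They also stood in 1 of 24 licensing promoters (4.17%). Of the 25 members of the cholesterol list, those without a promoter entry were not searched.

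The mean level of the cholesterol list relative to DMSO was 1.87, 1.91 and 2.05 in the PD30 libraries and -0.41, 0.19 and 0.63 in the PD24 libraries, in log2 units. The PD24 libraries did not overlap PD30 and lay on both sides of the DMSO mean. The count of lower members was 16 to 23 when any 1 library was left out. ABCA1 (chr9:107543287-107690436 in GRCh37), the pump that exports cholesterol, stood at 12.04, 9.15 and 8.01 CPM in PD30, 167, 127 and 97.9 in PD24 and 58.9, 58.0 and 57.4 in DMSO. It thus moved opposite to the synthesis genes, with PD24 above DMSO and PD30 below it in every library. ABCA1 rose by 3.74 ± 0.23 (SE, edgeR adjusted p = 8.72e-05) on the log2 scale, a 13.4-fold difference, and lay above DMSO by 1.17 ± 0.173 (SE).

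**Figure D3:**
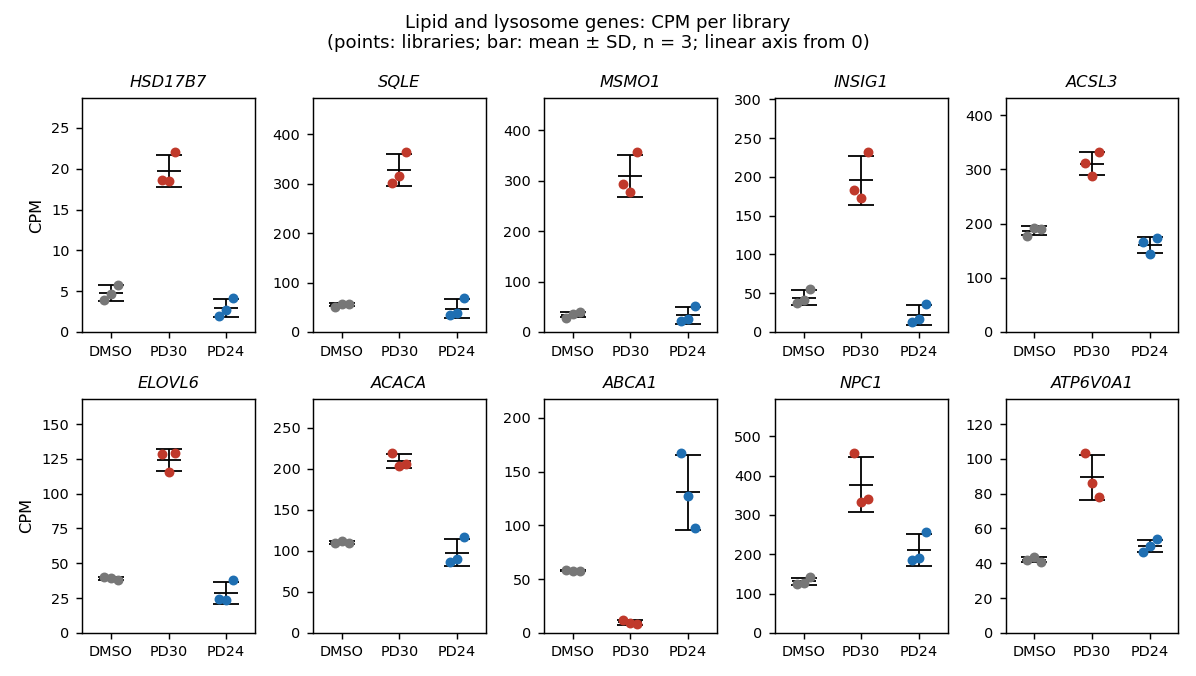
CPM of lipid and lysosome genes in each DMSO, PD30 and PD24 library (y axis, CPM from 0; points are libraries and bars mean ± SD, n = 3). SQLE spans 302 to 364 CPM in PD30 and 34.5 to 68.7 CPM in PD24, while ABCA1 spans 8.01 to 12.04 CPM in PD30 and 97.9 to 167 CPM in PD24.

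Fatty acid genes followed at smaller size, with 11 of 19 lower in PD24 and 1 higher, against 12.2% and 12.9% of all genes. The median was -0.62. In PD30, 15 of 19 lay above DMSO (median 0.86), and in PD24, 7 of 18 lay above and 3 below (median 0.12, with 5 below under the block). ELOVL6, a fatty acid elongase, stood at 128, 115 and 129 CPM in PD30, 24.6, 23.8 and 37.9 in PD24 and 39.7, 39.3 and 37.7 in DMSO. ACACA, the acetyl-CoA carboxylase of fatty acid synthesis, stood at 219, 203 and 206 CPM in PD30, 86.9, 89.9 and 117 in PD24 and 109.9, 112 and 109 in DMSO. Both left the PD30 range in every PD24 library, and PD24 overlapped DMSO. ELOVL6 fell with a log2 fold change of -2.12 ± 0.18 (SE, edgeR adjusted p = 0.000218), ACACA with -1.11 ± 0.13 (SE, edgeR adjusted p = 0.000654), ACSL3, an acyl-CoA ligase, with -0.96 ± 0.11 (SE, edgeR adjusted p = 0.000569) and the elongase ELOVL5 with -0.62 ± 0.099 (SE, edgeR adjusted p = 0.00257). Without PD24 replicate 3 there were 2 higher members. ACACB, the mitochondrial carboxylase, rose (0.76 ± 0.16, edgeR adjusted p = 0.0093), from a log2 fold change of -1.38 against DMSO in PD30 to -0.62 in PD24.

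Most lysosomal and V-ATPase genes lay above DMSO both with the drug and after its removal. In PD30, 47 of 57 lay above DMSO, with a median of 0.73, and in PD24 42 did, with a median of 0.51. Between PD24 and PD30, 8 were lower and 2 higher, against 12.2% and 12.9% of all genes, with a median of -0.22, and with the block 25 were lower and 4 higher. ATP6V0A1, a V-ATPase subunit, stood at 103, 86.2 and 78.4 CPM in PD30, 46.3, 49.7 and 53.7 in PD24 and 41.7, 43.5 and 40.6 in DMSO. NPC1, which moves cholesterol out of lysosomes, stood at 458, 332 and 342 CPM in PD30, 184, 191 and 258 in PD24 and 125, 127 and 142 in DMSO. In each gene PD24 lay between the other groups without overlap. ATP6V0A1 fell with a log2 fold change of -0.85 ± 0.13 (SE, edgeR adjusted p = 0.0019), NPC1 with -0.85 ± 0.17 (SE, edgeR adjusted p = 0.00662) and ATP6V1C1, another V-ATPase subunit, with -0.62 ± 0.13 (SE, edgeR adjusted p = 0.00961). SQSTM1, an autophagy receptor, stood at 598, 732 and 599 CPM in PD30, 1268, 2042 and 1759 in PD24 and 582, 704 and 726 in DMSO. All PD24 libraries lay above all others, and it rose by 1.38 ± 0.17 (SE, edgeR adjusted p = 0.000825). In the same list 1 member was higher without PD24 replicate 2, PD30 replicate 1 or PD30 replicate 3. Without PD24 replicate 3 the list had 16 lower members, without PD24 replicate 1 or PD30 replicate 3 it had 5, and without PD30 replicate 1 it had 4. Exons of MGAT4B and MRNIP overlap SQSTM1, and exons of RMC1 overlap NPC1, on the other strand.

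**Figure D4:**
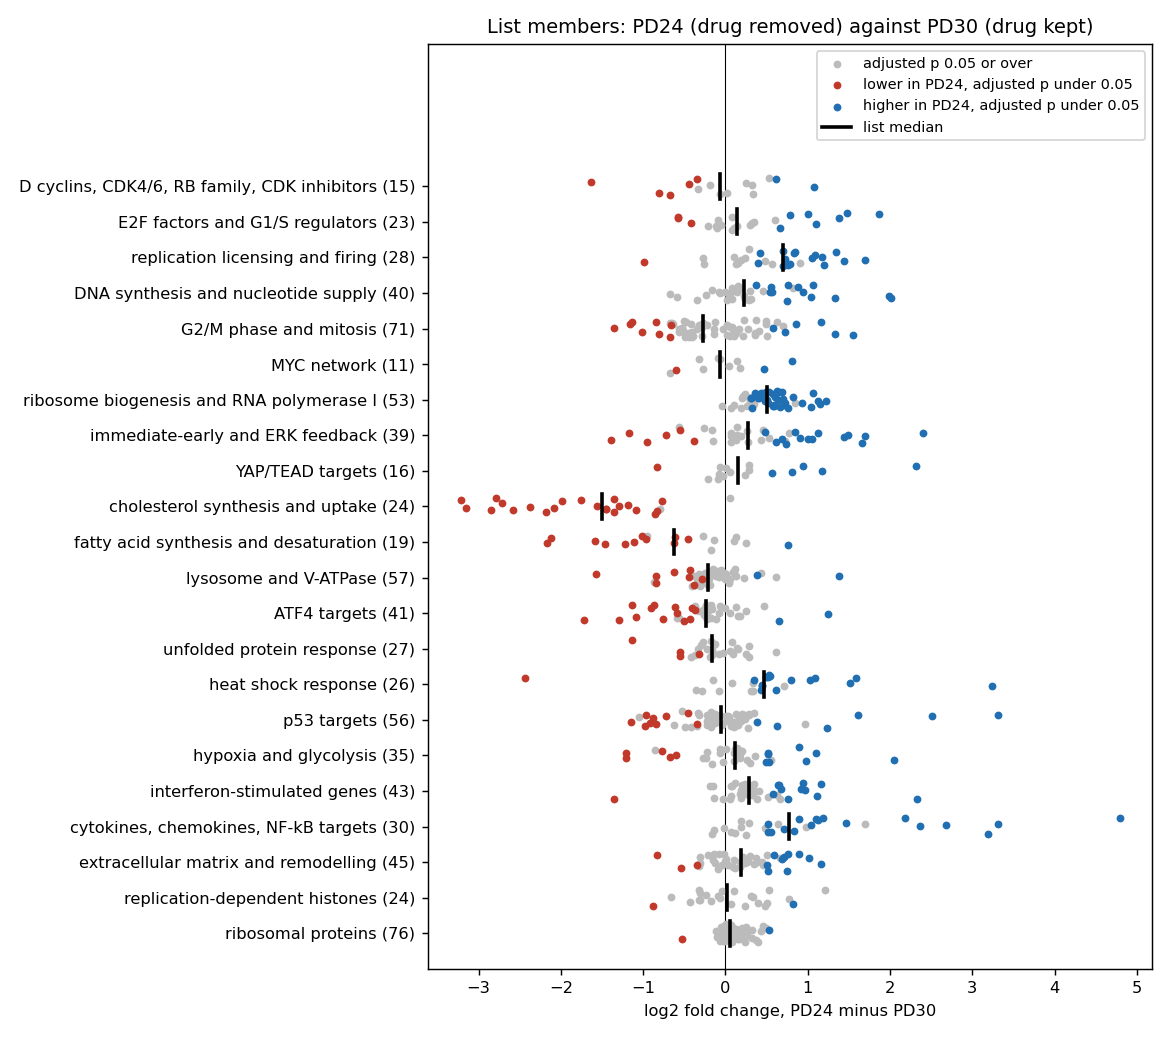
Log2 fold change of every tested list member between PD24 and PD30 (x axis, PD24 minus PD30; each point is a gene, coloured by its call in edgeR's test, with the list median as a black bar and the number of members in brackets). The cholesterol list reaches from -3.22 to 0.05 and the cytokine list from -0.16 to 4.79, whereas the 76 ribosomal proteins lie between -0.53 and 0.53.

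Genes of ribosome biogenesis and RNA polymerase I rose together. Of 53 members, 37 were higher in PD24 than in PD30 and none was lower by edgeR, DESeq2 or an unadjusted p under 0.05, with a median of 0.50, against 12.9% of all genes higher. In PD30, 19 lay below DMSO and 1 above (median -0.16), and in PD24, 20 lay above and 2 below (median 0.26). NOP56, a core protein of box C/D snoRNPs, stood at 140.0, 137 and 120.1 CPM in PD30, 307, 294 and 329 in PD24 and 207, 212 and 229 in DMSO. UBTF, an RNA polymerase I factor, stood at 72.1, 72.8 and 68.3 CPM in PD30, 125, 184 and 161 in PD24 and 161, 148 and 157 in DMSO. NOP56 lay above DMSO in all PD24 libraries, while UBTF overlapped DMSO. NOP56 rose by 1.22 ± 0.1 (SE, edgeR adjusted p = 0.000224), UBTF by 1.13 ± 0.14 (SE, edgeR adjusted p = 0.000852), LYAR, a nucleolar protein, by 0.93 ± 0.12 (SE, edgeR adjusted p = 0.000981) and DKC1, the snoRNP pseudouridine synthase, by 0.71 ± 0.095 (SE, edgeR adjusted p = 0.00116). The count of higher members was 26 to 36 when any 1 library was left out. By contrast, 1 of 76 ribosomal protein genes was higher (RPL36A) and 1 lower (RPL13A), with a median of 0.05, although 12 were higher with the block and 6 without PD24 replicate 3. RPLP0, of that list, had a log2 fold change of -0.09 ± 0.12 (SE, edgeR adjusted p = 0.645). Without PD24 replicate 1, PD30 replicate 1 or PD30 replicate 3 none was higher. snoRNA genes lie within NOP56, DKC1 and RPL13A.

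MYC, a transcription factor that drives growth genes, stood at 40.5, 48.6 and 55.9 CPM in PD30, 85.9, 94.0 and 75.5 in PD24 and 42.8, 34.5 and 33.8 in DMSO. Each PD24 library lay above all others. MYC rose by 0.80 ± 0.14 (SE, edgeR adjusted p = 0.00349) against PD30 and lay 1.20 above DMSO on the log2 scale. In its network of 11 tested members, MLXIP, a glucose-responsive relative (0.47 ± 0.13, edgeR adjusted p = 0.0302), was the only other that rose and MXI1, a MYC antagonist, fell (-0.60 ± 0.18, edgeR adjusted p = 0.0352). Of all genes 12.9% rose and 12.2% fell, and the list median was -0.06. The calls of MLXIP and MXI1 were lost without PD30 replicate 1 or 3, PD24 replicate 2 and, respectively, PD24 replicate 3 or PD24 replicate 1, with adjusted p up to 0.11 and 0.109. Without PD24 replicate 3, 2 members were lower. With the block 3 members were lower, MXD1 among them (log2 fold change -0.67, blocked edgeR adjusted p = 0.00423).

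Of 39 immediate-early genes and genes of ERK feedback, 14 were higher in PD24 and 6 lower (median 0.27), against 12.9% and 12.2% of all genes. In PD30, 15 lay below DMSO and 4 above (median -0.22), and in PD24, 10 lay below and 8 above (median 0.08). JUN, an AP-1 subunit, stood at 31.4, 38.2 and 41.95 CPM in PD30, 132, 140.3 and 94.3 in PD24 and 89.8, 61.5 and 71.4 in DMSO. FOSL1, its partner, stood at 58.9, 56.3 and 79.5 CPM in PD30, 144, 140.5 and 144 in PD24 and 116, 115 and 155 in DMSO. JUN lay above DMSO in all PD24 libraries, and FOSL1 overlapped DMSO. JUN rose by 1.70 ± 0.17 (SE, edgeR adjusted p = 0.000381), FOSL1 by 1.13 ± 0.13 (SE, edgeR adjusted p = 0.000719), FOSB by 1.45 ± 0.2 (SE, edgeR adjusted p = 0.00132) and DUSP2, a MAP kinase phosphatase, by 2.41 ± 0.27 (SE, edgeR adjusted p = 0.000599), whereas JUND fell (-1.17 ± 0.27, edgeR adjusted p = 0.0122). Without PD24 replicate 1 there were 2 lower members, without PD30 replicate 2 there were 3, and without PD24 replicate 3 the median was 0.53.

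Of 16 YAP/TEAD targets, 5 were higher and 1 lower, against 12.9% and 12.2% of all genes, with a median of 0.15. In PD30, 7 lay above DMSO and 4 below (median 0.21), and in PD24, 9 lay above and 1 below (median 0.31). CYR61, a matricellular protein, stood at 590.0, 679 and 599 CPM in PD30, 1250, 1224 and 1152 in PD24 and 943, 866 and 986 in DMSO. F3, tissue factor, stood at 35.8, 36.5 and 27.1 CPM in PD30, 256, 139.8 and 105 in PD24 and 33.4, 35.2 and 33.4 in DMSO. PD24 lay above both groups in both genes. CYR61 rose by 0.95 ± 0.097 (SE, edgeR adjusted p = 0.000449), F3 by 2.32 ± 0.29 (SE, edgeR adjusted p = 0.000939), CTGF, a relative of CYR61, by 1.17 ± 0.18 (SE, edgeR adjusted p = 0.00239) and ANKRD1, a nuclear co-factor, by 0.81 ± 0.094 (SE, edgeR adjusted p = 0.000663). TGFB2, a growth factor, fell (-0.84 ± 0.16, edgeR adjusted p = 0.00552) and lay 0.03 from DMSO on the log2 scale. With the block 2 members were lower.

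Most heat shock genes rose, with 15 of 26 higher in PD24 and 1 lower, against 12.9% and 12.2% of all genes. The median was 0.47. In PD30, 12 lay below DMSO and 4 above (median -0.21), and in PD24, 10 of 25 lay above and 2 below (median 0.27). HSPA8, the constitutive Hsp70, stood at 1780, 1875 and 1504 CPM in PD30, 3651, 3594 and 3802 in PD24 and 2534, 2759 and 2519 in DMSO. DNAJA1, an Hsp40 co-chaperone, stood at 190.2, 203 and 189 CPM in PD30, 327, 332 and 357 in PD24 and 297, 311 and 283 in DMSO. PD24 was the highest group in every library of both genes. HSPA8 rose by 1.09 ± 0.1 (SE, edgeR adjusted p = 0.000364) and DNAJA1 by 0.79 ± 0.093 (SE, edgeR adjusted p = 0.000674). HSPA6 (3.23 ± 0.3, edgeR adjusted p = 0.000329) and HSPA1B (1.51 ± 0.17, edgeR adjusted p = 0.000611) are uncertain, since near-identical copies share reads with them. DNAJA4, at most 0.64 CPM in any library, fell (-2.43 ± 0.56, edgeR adjusted p = 0.0127; -3.13 without PD24 replicate 3), and 3 members were lower with the block and 2 without PD24 replicate 3.

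Cytokines, chemokines and NF-kB targets held the gene with the largest rise. Of 43 members, 30 had enough counts to be tested. Of these, 17 were higher in PD24 than in PD30 (12.9% of all genes). None was lower by edgeR, DESeq2 or an unadjusted p under 0.05. The median was 0.77, and 11 passed a log2 fold change of 1 (4.07% of all genes). The filter keeps a gene that is low in PD30 if PD24 is high, as with CSF2, so this count depends in part on that choice. In PD30, 5 lay above DMSO and 5 below (median -0.06), whereas in PD24 18 lay above and none below (median 0.86). CSF2 (chr5:131409482-131411863 in GRCh37), which encodes GM-CSF, stood at 0.169, 0.138 and 0.362 CPM in PD30, 9.90, 4.93 and 4.31 in PD24 and 0.363, 0.701 and 0.676 in DMSO. IL1B, an inflammatory cytokine, stood at 0.978, 0.386 and 0.501 CPM in PD30, 9.94, 4.10 and 2.88 in PD24 and 2.69, 1.58 and 2.09 in DMSO. All PD24 libraries exceeded all PD30 and DMSO libraries in both genes, with PD24 replicate 1 highest. CSF2 rose by 4.79 ± 0.45 (SE, edgeR adjusted p = 0.00034), IL1B by 3.19 ± 0.52 (SE, edgeR adjusted p = 0.00275) and TRAF1, an NF-kB target, by 2.69 ± 0.29 (SE, edgeR adjusted p = 0.00055). Without PD24 replicate 1 the log2 fold change of IL1B was 2.49. Against DMSO, CSF2 was higher by 3.46 ± 0.397 (SE). The 5 haematopoietic and endothelial markers that could be tested did not pass in edgeR or DESeq2, at an unadjusted p under 0.05 or with the block, and the part of such cells in these values was not tested.

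**Figure D5:**
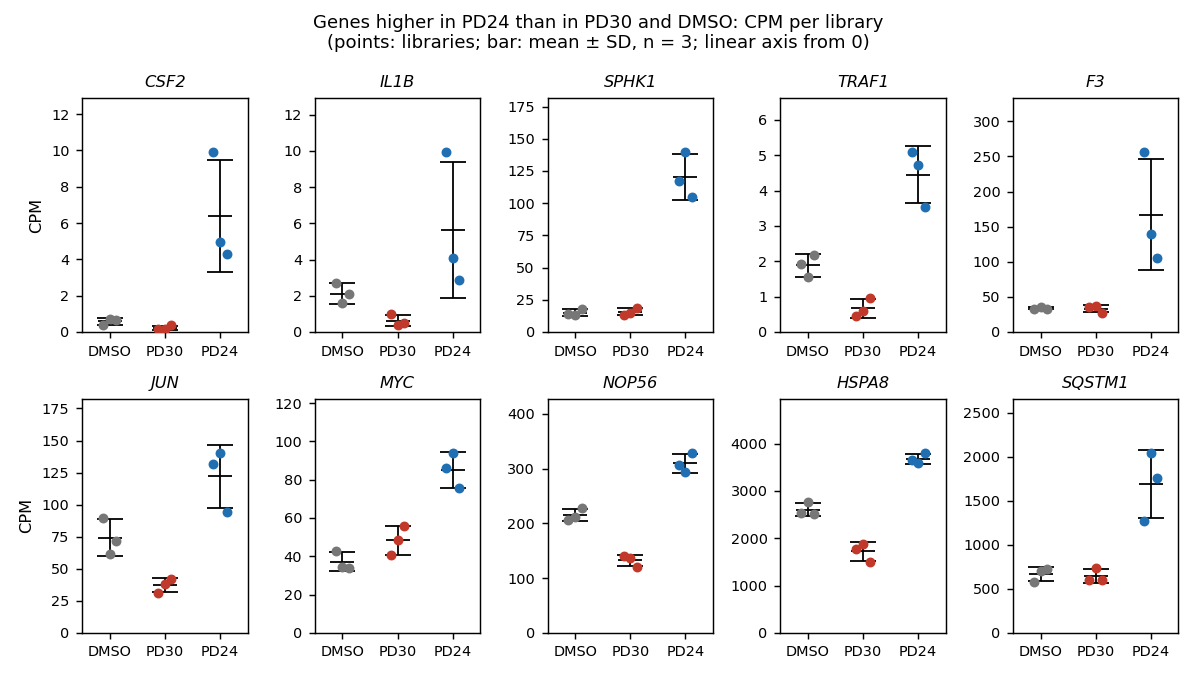
CPM of 10 genes that were higher in PD24 than in both PD30 and DMSO (y axis, CPM from 0; points are libraries and bars mean ± SD, n = 3). SPHK1 spans 104 to 139.6 CPM in PD24, 13.3 to 18.6 CPM in PD30 and 13.2 to 17.8 CPM in DMSO.

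Further genes among the 10 largest rises were not in the lipid or cytokine lists. RGS4, a regulator of G protein signalling, stood at 1.15, 1.32 and 1.89 CPM in PD30, 32.0, 13.2 and 10.4 in PD24 and 4.81, 5.22 and 6.60 in DMSO. SPHK1, which makes sphingosine 1-phosphate, stood at 13.3, 14.9 and 18.6 CPM in PD30, 117, 139.6 and 104 in PD24 and 14.2, 13.2 and 17.8 in DMSO. Both exceeded DMSO in every PD24 library, but RGS4 was below DMSO in PD30 and SPHK1 overlapped it. RGS4 rose by 3.65 ± 0.43 (SE, edgeR adjusted p = 0.000718) and SPHK1 by 2.93 ± 0.16 (SE, edgeR adjusted p = 8.28e-05), and without PD24 replicate 1, the highest of its group, RGS4 had 3.004. LOC730755 (3.33 ± 0.41, edgeR adjusted p = 0.000784), CLDN14, a tight junction protein (2.89 ± 0.33, edgeR adjusted p = 0.000633), and ANGPTL4, an inhibitor of lipoprotein lipase (2.82 ± 0.28, edgeR adjusted p = 0.000412), also rose. CLDN14 stood at 0.236, 0.276 and 0.417 CPM in PD30, 1.65, 2.42 and 2.96 in PD24 and 0.151, 0.035 and 0.161 in DMSO. It was too low to be tested in PD30 against DMSO, so PD24 alone kept it in this test. Exons of PRPSAP1 on the other strand overlap SPHK1. Among the 10 largest falls outside the sterol genes, SLCO4C1, an organic anion transporter (-2.87 ± 0.53, edgeR adjusted p = 0.00508), SNAI3, a Snail family factor (-2.86 ± 0.23, edgeR adjusted p = 0.000203), FOXP2, a forkhead factor (-2.78 ± 0.27, edgeR adjusted p = 0.000364), OVGP1, a glycoprotein (-2.81 ± 0.35, edgeR adjusted p = 0.000922), and KRT77, a keratin (-2.91 ± 0.53, edgeR adjusted p = 0.00458), stood at 1.27 to 8.09 CPM in PD30 and 0.13 to 1.82 CPM in PD24. The log2 fold change of SLCO4C1 was -4.385 without PD24 replicate 3, which stood at 1.82 CPM, and that of KRT77 was -3.56 without PD24 replicate 1.

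Of 56 tested p53 targets, 6 were higher and 9 lower in PD24 than in PD30 (median -0.05), against 12.9% and 12.2% of all genes. Against DMSO the medians were -0.27 in PD30, with 25 of 57 lower and 11 higher, and -0.31 in PD24, with 24 of 56 lower and 8 higher. Over all genes, 25.4% were lower and 22.9% higher in PD30, and 20.8% and 17.5% in PD24. MDM2, the p53 ligase gene amplified in this line, stood at 1261, 1141 and 1520 CPM in PD30, 1604, 1235 and 1367 in PD24 and 2506, 2619 and 2657 in DMSO. The PD24 and PD30 libraries overlapped and all lay below DMSO, with a log2 fold change of 0.09 ± 0.13 (SE, edgeR adjusted p = 0.649) and a 95% interval from -0.20 to 0.39. CDKN1A stood at 129.7, 110.1 and 131 CPM in PD30, 94.4, 95.2 and 106 in PD24 and 218, 192 and 143 in DMSO, the lowest in PD24. TP53I3, an oxidoreductase, rose by 0.62 ± 0.17 (SE, edgeR adjusted p = 0.0277), a call lost without PD24 replicate 1 or 2 or PD30 replicate 1 or 3 (up to 0.0891), and the apoptosis gene BBC3 had -0.18 ± 0.34 (SE, edgeR adjusted p = 0.737). KITLG, which encodes stem cell factor, stood at 3.61, 2.65 and 2.14 CPM in PD30, 17.5, 13.7 and 16.8 in PD24 and 19.6, 19.2 and 22.4 in DMSO. PD24 lay just below DMSO and far above PD30, and KITLG rose by 2.51 ± 0.21 (SE, edgeR adjusted p = 0.000218). SERTAD1, a co-regulator that binds CDK4, rose by 1.23 ± 0.19 (SE, edgeR adjusted p = 0.00226), and ORAI3, a calcium channel, fell (-1.14 ± 0.15, edgeR adjusted p = 0.001). The list had 16 lower members with the block, 14 without PD24 replicate 3, 5 without PD24 replicate 1 and 4 without PD30 replicate 3. Exons of the carboxypeptidase M gene overlap MDM2 and exons of FAM228B overlap TP53I3 on the other strand.

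In the list of ATF4 targets, genes of amino acid supply and stress, 13 of 41 were lower and 2 higher (median -0.24), against 12.2% and 12.9% of all genes, with 22 lower and 4 higher under the block and 8 lower without PD30 replicate 3. TRIB3, a pseudokinase, stood at 83.2, 98.9 and 167 CPM in PD30, 31.0, 37.8 and 37.6 in PD24 and 38.9, 63.9 and 36.0 in DMSO. ATF4 itself stood at 264, 302 and 373 CPM in PD30, 163, 151 and 130.3 in PD24 and 228, 257 and 191 in DMSO. PD24 overlapped DMSO for TRIB3 and lay below it for ATF4. TRIB3 fell with a log2 fold change of -1.72 ± 0.23 (SE, edgeR adjusted p = 0.00119), ATF4 with -1.09 ± 0.14 (SE, edgeR adjusted p = 0.000968) and AARS, an alanyl-tRNA synthetase, with -0.61 ± 0.1 (SE, edgeR adjusted p = 0.00327), while ATF5, a related factor, rose (1.25 ± 0.15, edgeR adjusted p = 0.000801). Of 27 unfolded protein response genes, 4 were lower, against 12.2% of all genes, and none higher by edgeR (2 at an unadjusted p under 0.05, 1 by DESeq2, median -0.16), with 9 lower and 3 higher under the block, 2 lower without any 1 PD30 library, and 2 and 1 higher without PD24 replicate 3 and PD30 replicate 2. They were the kinase gene EIF2AK3 (-1.13 ± 0.15, edgeR adjusted p = 0.00116), HERPUD1 (-0.55 ± 0.12, edgeR adjusted p = 0.0117), DNAJB9 (-0.56 ± 0.16, edgeR adjusted p = 0.0315) and SYVN1 (-0.32 ± 0.097, edgeR adjusted p = 0.0401). The last 2 calls were lost in 4 and 5 of the 6 fits that left out 1 library (up to 0.0995 and 0.135), and that of SYVN1 also without a filter (0.0512).

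Of 35 hypoxia and glycolysis genes, 8 were higher and 5 lower (median 0.12), against 12.9% and 12.2% of all genes. HK2, a hexokinase, rose by 0.98 ± 0.1 (SE, edgeR adjusted p = 0.000478) and ADM, a vasodilator peptide, by 2.05 ± 0.29 (SE, edgeR adjusted p = 0.00139), while VEGFA (-1.21 ± 0.14, edgeR adjusted p = 0.000611) and PFKFB4, a glycolysis regulator (-1.21 ± 0.16, edgeR adjusted p = 0.00115), fell. VEGFA stood at 124, 148 and 112 CPM in PD30, 53.1, 63.7 and 50.6 in PD24 and 86.0, 85.9 and 43.8 in DMSO, so PD24 overlapped DMSO. With the block 8 members were lower, and higher members numbered 4 without PD30 replicate 1 and 5 without PD24 replicate 1 or PD30 replicate 3.

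Among 43 interferon-stimulated genes, 11 were higher and 1 was lower (median 0.29), against 12.9% and 12.2% of all genes, and 19 were higher with the block. In PD30, 21 lay below DMSO and 3 above (median -0.31), and in PD24, 8 lay below and 5 above (median 0.08). Over all genes, 25.4% lay below DMSO and 22.9% above in PD30, and 20.8% and 17.5% in PD24. IFI44 stood at 4.72, 4.46 and 4.51 CPM in PD30, 9.42, 9.78 and 11.7 in PD24 and 14.3, 15.8 and 18.1 in DMSO. STAT2, a subunit of the factor that induces such genes, stood at 222, 182 and 186 CPM in PD30, 67.0, 68.8 and 95.8 in PD24 and 77.0, 81.2 and 91.0 in DMSO. The PD24 libraries lay between PD30 and DMSO for IFI44, and the PD24 libraries overlapped DMSO for STAT2. IFI44 rose by 1.17 ± 0.15 (SE, edgeR adjusted p = 0.001), OASL by 2.33 ± 0.3 (SE, edgeR adjusted p = 0.000976) and XAF1 by 0.97 ± 0.13 (SE, edgeR adjusted p = 0.00116), and STAT2 fell with a log2 fold change of -1.36 ± 0.16 (SE, edgeR adjusted p = 0.000633).

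In the extracellular matrix list 10 of 45 members were higher and 3 lower (median 0.19), against 12.9% and 12.2% of all genes. Under the block 7 were lower, and 6 were higher without PD24 replicate 1, PD30 replicate 1 or PD30 replicate 3. THBS1, thrombospondin 1, rose by 1.17 ± 0.22 (SE, edgeR adjusted p = 0.00605) and COL16A1 by 0.74 ± 0.14 (SE, edgeR adjusted p = 0.00609), while COL8A1 (-0.83 ± 0.1, edgeR adjusted p = 0.000922) and COL11A1 (-0.54 ± 0.11, edgeR adjusted p = 0.00718) fell. Of 13 tested osteoblast and mesenchymal markers, 4 rose, namely CDH11, a cadherin of osteoblasts (1.66 ± 0.12, edgeR adjusted p = 0.000132), COL1A1 (0.89 ± 0.21, edgeR adjusted p = 0.0148, lost without PD30 replicate 3 at 0.0587), VIM (0.56 ± 0.096, edgeR adjusted p = 0.00362) and CDH2 (0.42 ± 0.1, edgeR adjusted p = 0.0175, lost without PD24 replicate 1 or PD30 replicate 1 or 2 at up to 0.106). No epithelial marker passed in edgeR or DESeq2 (3 of 6 were lower at an unadjusted p under 0.05), and ESRP1 and CLDN4 were lower with the block. Of 24 replication-dependent histone genes, which are uncertain because near-identical copies share reads, 1 was higher (HIST2H2BE, 0.82 ± 0.18, edgeR adjusted p = 0.0116) and 1 lower (HIST1H3E, -0.88 ± 0.2, edgeR adjusted p = 0.0116), with 5 higher under the block or without PD24 replicate 3, 2 without PD24 replicate 1 and 3 without PD30 replicate 1.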

How the data were processed

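RNA of SJSA cells was sequenced by the authors, who mapped reads to hg19 with TopHat and Bowtie2 and counted them per gene with HTSeq 0.6.0, per the submitters' processing notes, which name DESeq2 as well. The deposited counts were whole numbers over 23368 gene rows, 28 of them named as dates by a spreadsheet, and 20700 had a count in at least 1 of the 9 libraries used. The columns of PD24 and PD30 came from tables that each hold the same 3 DMSO columns, and were joined by gene. Libraries were made with the TruSeq RNA LT kit, and the study's methods give the reverse strand setting of HTSeq. Whether the kit kept strand is not given in the sources used here. Depth per library is given in the report, and intervals and levels cover the spread between libraries.

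Samples were grouped by their labels, 3 a group. PD24 was compared with PD30 in edgeR 4.0.16 (R 4.3.3, limma 3.58.1) by the quasi-likelihood test, after TMM scaling and filterByExpr on the 6 libraries, with Benjamini-Hochberg adjustment over all genes tested and a threshold of 0.05. PD30 and PD24 were each compared with DMSO in the same way. Levels are CPM over 9 libraries, log2 levels use a prior count of 2, and the procedure was tested on simulated data. There it recovered 17 of 100 genes changed 1.5-fold and 73 of 100 changed 2-fold, and called 9 unchanged genes. A gene that did not pass is therefore not shown to be unchanged. The simulation changed 100 genes at each fold among 15171, a smaller share than the data called, so its recovery rates need not hold for the data. Tables were made with Python 3.11.15 and pandas 2.3.3, and figures with matplotlib 3.10.9. Alternatives were RLE, upper quartile and total count scaling, DESeq2 1.42.0, no filter, a replicate block, 9 libraries in 1 fit, a test against a minimum log2 change of 0.5, and leaving out each library. Same-numbered PD24 and PD30 libraries deviated together (correlations of 0.255, 0.453 and 0.237 over 15395 genes), and the other pairs had -0.364 to 0.0929. The replicate block took the numbers to pair libraries on that basis alone, read from these same data. The labels do not say that the numbers pair libraries. The deviations were taken from group means, so positive values for same-numbered libraries force lower values in other pairs. The contrast is thus in part built in. The main test did not use the block, and its calls ignore any pairing.

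Named genes were the 10 largest rises and falls (adjusted p under 0.05, absolute log2 fold change over 1, no overlap of groups, mean of at least 2 CPM in the higher group), the tested members of the first 2 cell cycle lists, the 4 members with the smallest adjusted p in each other list with the best in the other direction, and MDM2, CDKN1A, TP53I3, BBC3 and RPLP0. Other genes were picked after their values were seen. Members and lists were chosen with earlier results of these data known. Some genes that this rule names are not reported here. Nutlin samples were not analysed here.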

Additional observations from a re-analysis of the deposited data

How the results depend on the processing

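With the replicate number as a block, 6107 genes changed between PD24 and PD30 (3120 higher and 2987 lower), against 3816 without it. Among the named genes the block added CCND1, CDK6, RB1, RBL1, E2F1, E2F4, MXD1, ESRP1, CLDN4, HIST1H1C, HIST1H2BG, RPL17 and RPLP1, and it changed the call of no other. When each library was left out in turn, between 2178 (without PD30 replicate 1) and 4117 (without PD24 replicate 3) genes changed, with 1115 to 2142 higher and 1063 to 1975 lower. The counts of changed genes under RLE, upper quartile and total count scaling, DESeq2, no filter and 9 libraries in 1 fit stayed within 1.5 times. Counts of list members moved past that, to more members, in 9 cases with 9 libraries in 1 fit, against 35 that did not. Under DESeq2 these were 6 and 38, without a filter 3 and 41, and under total count scaling 2 and 42. None did under RLE or upper quartile scaling. Leaving out 1 library moved the median log2 fold change of some lists by more than their spread, between -0.201 and 0.049 for the D-type cyclin list, between -0.347 and -0.015 for G2/M, between -0.057 and 0.085 for the MYC network, between 0.471 and 0.55 for ribosome biogenesis, between 0.189 and 0.53 for immediate-early genes, between -0.178 and -0.115 for the unfolded protein response, between 0.391 and 0.522 for heat shock, between 0.061 and 0.216 for hypoxia and between 0.261 and 0.404 for interferon-stimulated genes. The cause was not tested. No named gene changed sign while called. Lists carry no call, and among the medians above those of the D-type cyclin list and the MYC network changed sign. Over all alternatives, 1860 values of named genes kept their side of the threshold, 68 lost it and 35 gained it. Genes near the threshold rest on 3 libraries a group.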
